A study of Mus musculus with 30 samples.

Results

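Imprinted genes are expressed mainly from the chromosome inherited from a single parent, and 38 genes known to be imprinted in some mouse tissue were listed by symbol. 37 of them were found among the 19737 genes of the deposited expression table, and Phlda2 was not in it. The members were listed by name and not by a rule on measured values, but earlier results of these data were known when they were chosen. They were ordered as a growth group of 9 genes (fetal growth factors, receptors and regulators), a placental group of 8 genes (7 in the table) and a brain group of 21 genes, the latter holding the clusters best known from the nervous system. 36 members passed the filter for a test, a mean of at least 10 normalized counts over the libraries compared, and Ascl2, a placental transcription factor that ranged from 2.46 to 14.9 over the 30 libraries, did not.

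The libraries came from whole brains of male C57BL/6N mice, 5 per group in 6 groups. WT and Arid1b+/- (HT) mice without treatment were taken at postnatal day 10 (P10). At P120, both genotypes had been reared by dams that drank 0.2% saccharin water either with 0.1 mg/ml fluoxetine hydrochloride (WT-Flx, HT-Flx) or without it (WT-Veh, HT-Veh) from P3 to P21. Fluoxetine is a serotonin reuptake inhibitor, and the pups received it through milk. Arid1b encodes a subunit of the BAF chromatin remodelling complex. The HT mice carried a CRISPR/Cas9 allele of 1 line in which exon 5 was deleted and TT was inserted. All mice came from HT sires and WT dams, so each HT mouse inherited the mutant allele from its father, and the dams of all groups were WT. The parental strains were the same, and the deposited values are sums over both parental alleles and say nothing of which allele was read. The treatment was given to dams, so pups of a dam shared it.

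Imprinting is set by DNA methylation that differs between egg and sperm, is protected by zinc finger proteins in the early embryo and is read in cis at clusters of genes. Many paternally expressed genes are known to promote fetal growth and many maternally expressed ones to restrain it, and the growth network is known to be turned down in most organs after birth. In the brain, imprinted genes are known for roles in feeding, maternal care, the timing of puberty and neuronal signalling, and Ube3a is known to be read from the maternal copy in neurons.

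Arid1b was 3164 to 3309 normalized counts in the WT libraries and 2162 to 2334 in the HT libraries at P10. At P120 it separated the genotypes as labelled in 18 of 20 libraries, and the vehicle libraries with the replicate number 2 (3361 in the HT group, 2320 in the WT group) lay in the range of the other genotype. The genotype comparison after vehicle at P120 was planned with 4 libraries a group and did not use these libraries. The counts of members called in the other comparisons that rest on them are given with and without them. The GC index of a library is the median log2 deviation of the 10% of genes richest in G and C minus that of the 10% poorest in them. Deviations were taken from the gene's mean over the libraries of the same age, so the index cannot be compared between P10 and P120. Among the P10 libraries it lay between -0.32 and 0.09. Among the P120 libraries it ran from 0.54 to 1.43 in HT-Flx, from -0.85 to -0.64 in WT-Flx, from -0.84 to 0.85 in HT-Veh and from -0.56 to 0.42 in WT-Veh. This index followed the first principal component of the 20 P120 libraries, which held 43.9% of their variance, and it is given again beside the results it moves with. All 5 defining markers of neurons (Rbfox3, Snap25, Stmn2, Syt1, Tubb3) were above 5805 in every library. The sums of normalized counts per library lay between 31578614 and 41801037. They are not read depths, which the normalized values do not give.

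The sequences shown first belong to members that differed with age. They are microRNAs carried within H19 and Mest and promoter stretches with CpG sites. DNA methylation at CpG sites marks imprints, but whether the printed sites carry it, or belong to an imprint, was not measured. H19, a long noncoding RNA at chr7:142575529-142578143 on the minus strand, holds the hairpin of miR-675 within an exon of 3 of its 7 annotated transcripts. Mest, at chr6:30723547-30748465 on the plus strand, holds the hairpin of miR-335 outside the exons of all 11 of its transcripts. The mature miRNAs are given 5′ to 3′ from RefSeq on GRCm38.p6, with the seed (bases 2 to 8) in capitals. They lie at chr7:142577112-142577133, chr7:142577078-142577099 and chr6:30741314-30741336 and share no seed. Hairpins also lie within Igf2, Calcr, Usp29 and Rtl1 and are not printed.
mmu-miR-675-5p: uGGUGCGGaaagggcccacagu
mmu-miR-675-3p: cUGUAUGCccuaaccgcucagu
mmu-miR-335-5p: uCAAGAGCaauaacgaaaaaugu
Neither miRNA was measured in these libraries, which were made from mRNA.

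RefSeq promoter windows, which run from 250 bases before a start site to 50 after it, were matched by symbol for 31 of the 38 listed genes (53 windows). The median member had 14 CpG sites in the 250 bases before its start (quartiles 10 and 23), taking for each gene the window with the most, against a median of 6 (quartiles 2 and 17) over 27025 genes, a set that includes noncoding genes. Taking the most favours genes with more windows, and the 27025 genes had 32851 windows, fewer per gene than the members. How much this adds to the contrast was not tested. The stretches printed belong to Mkrn3, among the genes that fell most with age (chr7:62420154-62420403, minus strand), and to 2 genes that rose, Dlk1 (chr12:109452573-109452822, plus strand) and Rasgrf1 (chr9:89909525-89909774, plus strand). CpG sites, the letters that DNA methylation acts on, are in capitals. No annotated exon overlaps these 3 stretches.
Mkrn3: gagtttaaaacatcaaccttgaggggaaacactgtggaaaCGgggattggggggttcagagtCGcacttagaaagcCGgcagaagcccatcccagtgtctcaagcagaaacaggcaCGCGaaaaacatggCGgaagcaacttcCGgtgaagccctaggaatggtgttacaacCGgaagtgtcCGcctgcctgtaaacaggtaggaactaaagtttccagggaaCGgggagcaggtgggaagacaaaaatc
Dlk1: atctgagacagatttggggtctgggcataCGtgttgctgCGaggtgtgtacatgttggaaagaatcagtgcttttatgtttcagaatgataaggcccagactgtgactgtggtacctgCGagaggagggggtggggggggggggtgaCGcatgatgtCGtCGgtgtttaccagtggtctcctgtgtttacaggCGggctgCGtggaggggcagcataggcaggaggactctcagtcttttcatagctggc
Rasgrf1: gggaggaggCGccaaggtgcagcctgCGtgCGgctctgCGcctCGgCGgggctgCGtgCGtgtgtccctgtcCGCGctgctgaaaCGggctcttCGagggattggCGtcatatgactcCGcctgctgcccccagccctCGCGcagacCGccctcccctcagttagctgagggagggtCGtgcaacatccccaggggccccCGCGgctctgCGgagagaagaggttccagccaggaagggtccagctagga
The stretches held 10, 8 and 21 CpG sites. The motif AANATGGC, a core bound by the factor YY1, was searched on both strands. It was found in 3 of the 53 member windows (5.66%; in Mkrn3, starting at base 124 of the printed stretch, Sfmbt2 and Ube3a) and in 6.05% of all 32851 windows.

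The levels of the members spanned more than 3 orders of magnitude per kilobase of annotated exon. In WT brains at P10, Snrpn, a spliceosomal protein gene of the Prader-Willi cluster, was highest (9465 ± 265 normalized counts per kb, mean ± SD, n = 5). It was followed by Nnat, a small membrane protein of neurons (6169 ± 685), and Nap1l5, a histone chaperone relative (5304 ± 523), whose libraries overlapped. Gnas, which encodes the stimulatory G protein alpha subunit (3941 ± 69.1), and Ndn, a MAGE family protein (3145 ± 211), completed the highest 5 of the 37. From Peg3 (1122 ± 65.4) over Inpp5f, Begain and Blcap to Igf2, neighbours in the order differed by less than the SD of at least 1 of each pair. In WT-Veh brains at P120 the same 5 genes held the highest 5 places, with Nnat moved from the second to the fourth. Mkrn3 went from place 19 to 33 and H19 from 25 to 36, while Dlk1 went from 29 to 19 and Rasgrf1 from 12 to 6.

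In WT brain, 23 of the 36 tested imprinted genes differed between P10 and P120 (WT-Veh), of which 16 fell and 7 rose. Of all 17927 genes tested, 58.3% differed by the same rule, 29.4% lower and 28.9% higher at P120, so the share of members that differed (63.9%) was near that of all genes. The median log2 fold change was -0.15 over the members and -0.01 over all genes. The groups did not overlap for 20 of the 36 members, against 45.6% of all genes. The largest falls were those of H19 and Mkrn3, and the largest rises those of Rasgrf1 and Dlk1. Differences were tested with limma on log2(value + 1) with Benjamini-Hochberg adjustment over all genes, and are given as log2 fold change ± SE. The p-values measure the spread between these libraries, and whether mice of a group shared a litter is not given. Age at P120 cannot be told apart from the saccharin rearing, and whether libraries of both ages were made together is not given. In these bulk samples fewer cells of a type and less RNA per cell cannot be told apart.

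**Figure D1:**
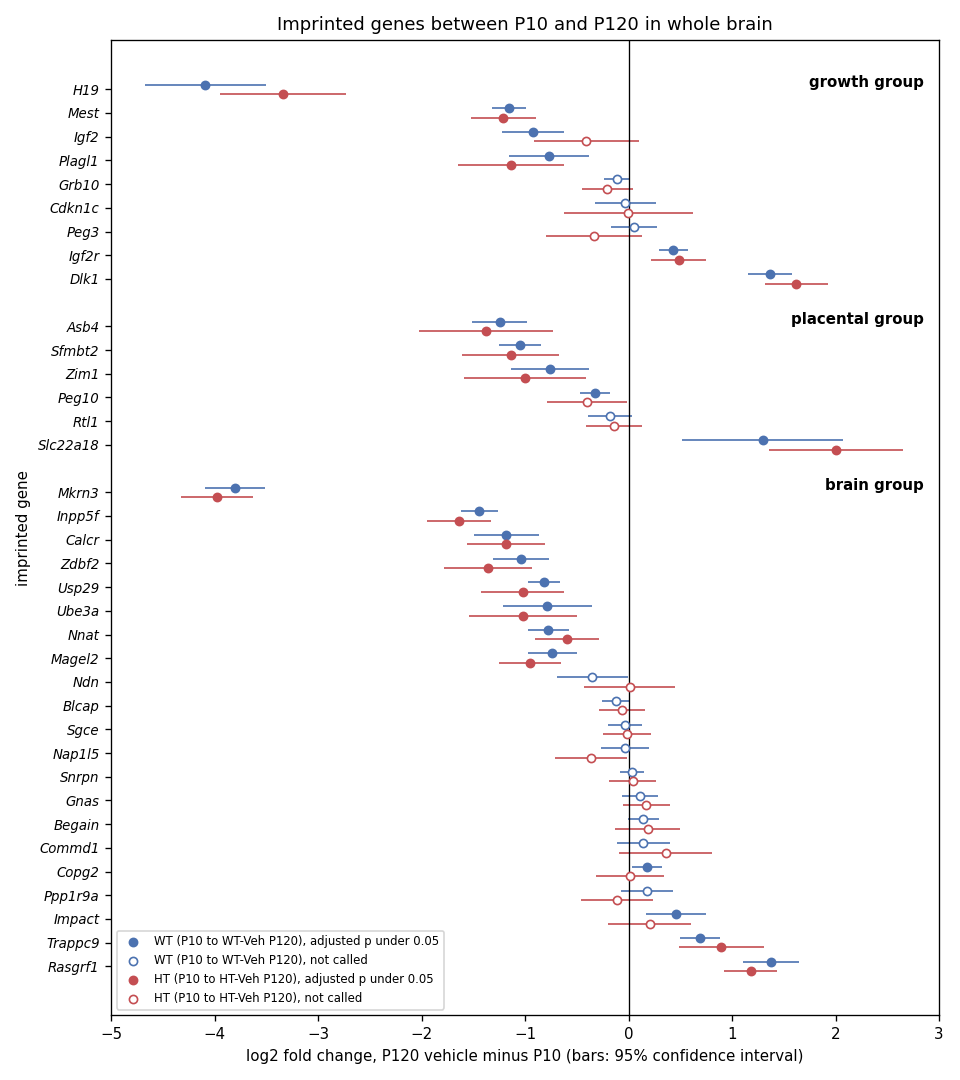
Log2 fold change from P10 to P120 (vehicle) on the horizontal axis for the 36 tested imprinted genes, in WT (blue) and HT (red), with 95% confidence intervals. Filled points passed the adjusted p threshold in limma. H19 and Mkrn3 lie farthest left in both genotypes, and Dlk1, Rasgrf1 and Slc22a18 farthest right.

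In the growth group, 4 of 9 members fell, 2 rose and 3 did not pass the test. H19, a noncoding RNA transcribed from the maternal copy beside Igf2, had 517, 363, 309, 379 and 286 normalized counts in the 5 WT libraries at P10 (replicates 1 to 5 throughout) and 9.10, 20.6, 24.1, 24.8 and 30.5 at P120. Every P10 library lay above every P120 library, and the mean went from 371 ± 90.2 to 21.8 ± 7.93 (SD; log2 fold change -4.09 ± 0.27, adjusted p = 7.1e-08, limma). WT P10 replicate 1, the highest library, also held the highest sum of 9 meninges and fibroblast markers (30985, against 10235 to 11869 in the other 4), whose part in the H19 level was not tested. Without that replicate, the WT libraries at P10 still lay between 286 and 379.

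Igf2, the fetal insulin-like growth factor, at chr7:142650766-142666816 on the minus strand of the same cluster, had 6593, 5411, 5661, 5521 and 5429 at P10 and 2334, 2700.3, 3039, 4475 and 2852 at P120. The groups did not overlap, and Igf2 fell 1.90-fold (-0.93 ± 0.14, adjusted p = 8.41e-05, limma). In adult brain Igf2 is known to come mostly from choroid plexus and meninges. 7 of 8 choroid plexus markers rose over the same interval (their sum ran from 11721 to 16072 at P10 and from 23386 to 34644 at P120). Of the 9 meninges and fibroblast markers 6 fell and 3 rose (sums of 10235 to 30985 and 5265 to 6922), none of the markers was at 0 in any library, and their part in the Igf2 difference was not tested.

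Mest, a hydrolase expressed from the paternal copy, had 1383, 1435, 1421, 1409 and 1483 at P10 and 619, 742, 561, 639.8 and 643 at P120. It fell 2.23-fold without overlap (-1.16 ± 0.08, adjusted p = 6.25e-08, limma). Plagl1, a zinc finger factor known to regulate other imprinted genes, had 1180.4, 1051, 1207, 1329 and 1022 at P10 and 769.7, 764, 385, 745 and 842 at P120, and fell by 0.77 (-0.77 ± 0.18, adjusted p = 0.00256, limma), with WT-Veh replicate 3 far below the other 4. That library also had the highest GC index of its group, 0.42.

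Dlk1 and Igf2r rose, against the direction that the growth network is known for. Dlk1, a transmembrane ligand of the Notch family expressed from the paternal copy at chr12:109452823-109463336, had 479.9, 409.9, 458, 449.7 and 497 at P10 and 948, 1255, 1336, 1293 and 1112 at P120. Every P120 library was above every P10 library, a 2.57-fold rise (1.36 ± 0.10, adjusted p = 1.52e-07, limma). Igf2r, the receptor that clears IGF2, had 1624, 1729, 1678, 1673 and 1832 at P10 and 2204, 2189, 2572, 2275 and 2293 at P120 (0.43 ± 0.06, adjusted p = 7.5e-05, limma), again without overlap. Its gene shares a stretch with the antisense RNA Airn, and the library kit does not mark strand, so reads of the pair cannot be told apart where they overlap.

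The remaining 3 growth genes did not pass the test in WT. Peg3, a paternally expressed zinc finger gene, had 13996, 15208, 14852, 14419 and 16278 at P10 and 17709.8, 15349, 12113, 14546 and 18464 at P120 (0.05 ± 0.10, 95% confidence interval -0.17 to 0.27). Cdkn1c, the maternally expressed cell cycle inhibitor p57, had 368, 352, 402, 428 and 339 at P10 and 314, 437, 491, 332 and 302 at P120 (-0.03 ± 0.14, interval -0.33 to 0.27). Grb10, an adaptor of insulin receptor signalling read from the paternal copy in neurons, had 2303, 2277, 2219.8, 2396 and 2309.6 at P10 and 2054, 2248, 2197, 2073 and 2041 at P120 (-0.12 ± 0.06, interval -0.24 to 0.00, adjusted p = 0.0866, limma). In all 3 the ages overlapped, and the widest of the 3 intervals was that of Cdkn1c.

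**Figure D2:**
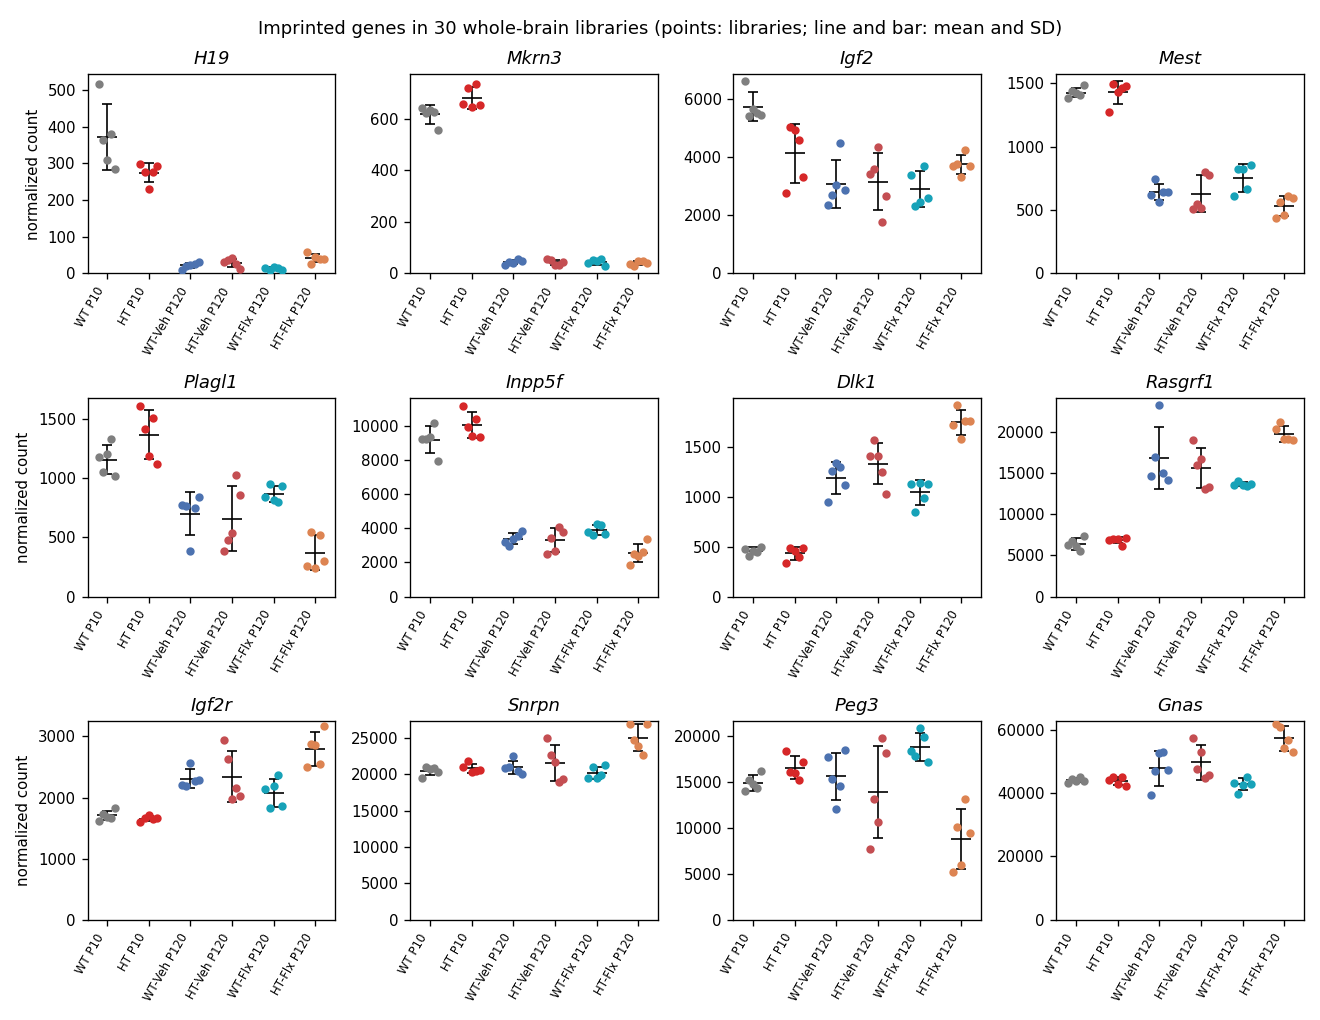
Normalized counts of 12 imprinted genes in the 30 libraries by group, each vertical axis starting at 0, with points for libraries and black bars for mean and SD. H19 and Mkrn3 are near 0 in all 4 P120 groups relative to P10, Dlk1 and Rasgrf1 are higher at P120, and the HT-Flx points lie apart from the WT-Flx points in Dlk1, Rasgrf1, Peg3, Snrpn and Gnas.

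In the placental group, 4 of the 6 tested members fell in WT, 1 rose and 1 did not pass. Asb4, a ubiquitin ligase adaptor, had 161, 166, 169.9, 195 and 175 at P10 and 88.1, 78.0, 66.9, 62.2 and 68.7 at P120 (-1.25 ± 0.12, adjusted p = 2.42e-06, limma). Sfmbt2, a polycomb group protein, had closely grouped values of 293, 299, 292, 300.1 and 298 at P10 and fell 2.07-fold to 127, 157, 129, 152 and 152 at P120 (-1.05 ± 0.09, adjusted p = 1.07e-06, limma). Zim1, a zinc finger gene beside Peg3, also fell (-0.76 ± 0.17), and none of these 3 genes overlapped between the ages. Peg10 and Rtl1, genes derived from retrotransposons and needed for the placenta, changed less: Peg10 was 2405 ± 131 and 1922 ± 139 (-0.32 ± 0.07, adjusted p = 0.00109, limma), and Rtl1, which did not pass, 465 ± 27.2 and 413 ± 58.0 (-0.18 ± 0.10, adjusted p = 0.134, limma). Slc22a18, an organic cation transporter, was low, at 20.5, 4.39, 9.96, 10.3 and 16.5 at P10 and 33.9, 17.1, 39.1, 28.3 and 29.3 at P120, and rose 2.46-fold with 1 pair of libraries overlapping (adjusted p = 0.00745, limma). After a correction that subtracts from each gene the mean deviation of genes of like GC content and length in a library, Zim1 (-0.34 ± 0.19, adjusted p = 0.143, limma) and Peg10 (-0.15 ± 0.06, adjusted p = 0.0570, limma) were no longer called, and Rtl1 was (-0.31 ± 0.10, adjusted p = 0.0212, limma).

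In the brain group, 8 of 21 members fell in WT, 4 rose and 9 did not pass the test. The cluster on chromosome 7 that is lost in Prader-Willi and Angelman syndromes in people held 5 members with unlike values. Mkrn3, a ubiquitin ligase known to hold back puberty, at chr7:62417593-62420139, had 642, 622, 634, 627 and 554 at P10 and 31.7, 44.1, 41.8, 54.1 and 47.0 at P120. The lowest P10 library was over 10 times the highest P120 library (-3.80 ± 0.13, adjusted p = 6.25e-10, limma). Magel2, a MAGE family regulator of protein recycling in the hypothalamus, had 524, 604, 534, 704 and 479 and 360.2, 364, 359, 313 and 298, again without overlap (-0.74 ± 0.11, adjusted p = 8.25e-05, limma). The 7 hypothalamic peptide markers summed to 781 to 927 at P10 and to 1109.6 to 2071 at P120, and 5 of the 6 tested were called higher. Their part in the values of Mkrn3 and Magel2 was not tested.

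Ube3a, the ubiquitin ligase of Angelman syndrome, had 4389.7, 4409.8, 5134, 4882 and 4686 at P10 and 3685, 2592, 1471, 2928 and 3637 at P120. All P120 libraries were lower, but they spanned more than a 2-fold range, with WT-Veh replicate 3, the library also low in Plagl1, lowest (-0.78 ± 0.20, adjusted p = 0.00432, limma). Reads of Ube3a and of the antisense RNA from Snhg14 cannot be told apart where they overlap. Snrpn and Ndn, of the same cluster, did not pass. Snrpn had 19524, 20935, 20659, 20811 and 20249.9 at P10 and 20776, 20989, 22432, 20460.3 and 20055 at P120 (0.03 ± 0.05, interval -0.08 to 0.15). Ndn had 11332, 11668, 11749, 12745 and 10594 at P10 and 5639.6, 11048, 11557, 8398 and 10241 at P120, WT-Veh replicate 1 being far the lowest (-0.35 ± 0.16, adjusted p = 0.0744, limma), and it passed without WT-Veh replicate 2 or 3.

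Outside that cluster, Inpp5f, an inositol phosphatase with an imprinted isoform in brain, had 9260.0, 9232, 9331, 10197 and 7962 at P10 and 3216, 2972, 3352, 3536 and 3853 at P120, a 2.72-fold fall (-1.44 ± 0.08, adjusted p = 1.82e-08, limma). The table sums all isoforms of a gene. Calcr, the calcitonin receptor, had 124, 139.9, 133, 123 and 115 at P10 and 71.0, 51.4, 59.3, 55.7 and 43.2 at P120 (-1.18 ± 0.14, adjusted p = 1.45e-05, limma). Zdbf2, a paternally expressed gene whose loss impairs feeding in mouse pups, had 2002, 2126, 2188, 1907 and 2168 and 1228, 992, 705, 1158 and 1052 (-1.04 ± 0.13, adjusted p = 1.3e-05, limma), and Usp29, a deubiquitinase gene beside Peg3, also fell (-0.82 ± 0.07, adjusted p = 7.71e-07, limma). These 4 genes were lower in every P120 library than in any P10 library. Nnat had 11118, 11119, 11619, 13028 and 9531 at P10 and 5822, 6722, 7016, 7468 and 5879 at P120 (-0.78 ± 0.09, adjusted p = 1.13e-05, limma), while Blcap, a gene of the opposite strand in which Nnat lies, did not pass (-0.13 ± 0.06, adjusted p = 0.101, limma).

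Among the rises of the brain group, Rasgrf1, a neuronal exchange factor for Ras expressed from the paternal copy at chr9:89909908-90026977, had 6237, 6713, 6172, 5494 and 7331 at P10 and 14707, 17000.0, 23304, 15027 and 14118 at P120. The groups were far apart, a 2.60-fold rise (1.38 ± 0.13, adjusted p = 1.15e-06, limma). Trappc9, a vesicle trafficking gene, had 2587, 2563, 2367, 2415 and 2436 at P10 and 3309, 4189.9, 4365, 4656 and 3541 at P120 and rose without overlap (0.69 ± 0.09, adjusted p = 2.66e-05, limma). The noncoding gene Peg13 lies within the span of Trappc9 on the same strand. Whether their exons overlap, and so whether reads of Peg13 can count for Trappc9, was not checked. Impact, a regulator of translation, had 4633, 4759, 4856, 4317 and 5577 at P10 and 7259.7, 6713, 4428, 7232 and 8068 at P120 (0.46 ± 0.14, adjusted p = 0.0111, limma). Copg2, a coatomer subunit, had 1924, 2075, 2047, 2213 and 2205 and 2561, 2482, 2243, 2203 and 2348 (0.18 ± 0.07, adjusted p = 0.0337, limma). These 2 genes rose with overlapping libraries. The call of Copg2 was lost without any 1 of WT P10 replicates 1, 2 and 3 and WT-Veh replicates 1 and 2. Gnas had 43067, 44467, 43814, 45139.6 and 43927 at P10 and 39407, 46979, 52639, 52903 and 47173 at P120, with overlap (0.11 ± 0.08). Gnas, Nap1l5 (-0.03 ± 0.11), Sgce, the sarcoglycan of myoclonus-dystonia (-0.04 ± 0.07), Begain (0.14 ± 0.07), Commd1 (0.14 ± 0.12) and Ppp1r9a, a synaptic actin-binding protein (0.18 ± 0.12), did not pass, the widest of the 6 intervals being that of Commd1 (-0.11 to 0.40) and the farthest from 0 that of Ppp1r9a (-0.07 to 0.43).

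The GC and length correction left 29 members called in WT, 21 of them among the 23, and added 8. Sgce (0.34 ± 0.11, adjusted p = 0.0155, limma), Gnas (-0.16 ± 0.06, adjusted p = 0.0345, limma) and Begain (-0.13 ± 0.05, adjusted p = 0.0450, limma) were called with the sign opposite to that of the values above. Ppp1r9a (0.51 ± 0.08, adjusted p = 0.000141, limma) and Blcap (-0.19 ± 0.05) of the brain group, Rtl1, and Peg3 (0.23 ± 0.07) and Cdkn1c (-0.30 ± 0.11) of the growth group were called with the sign they had before. Some calls lay at the threshold. With the replicate number as a block as well, Zim1 (adjusted p = 0.0411, limma) and Peg10 (adjusted p = 0.0453, limma) were called in WT and Begain (adjusted p = 0.0577, limma) was not.

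The values of neighbours in a cluster were set side by side. Around Peg3 on chromosome 7, Zim1 and Usp29 fell while Peg3 gave 0.05. On chromosome 12, Dlk1 rose while Begain (0.14) and Rtl1 (-0.18) did not pass. On chromosome 6, Mest fell and Copg2, which overlaps it on the other strand, rose slightly, and from Calcr to Asb4 those 2 genes and Peg10 fell while Sgce and Ppp1r9a between them did not pass. On distal chromosome 7, H19 and Igf2 fell, Cdkn1c did not pass and Slc22a18 rose. On chromosome 2, Nnat fell and Blcap, which did not pass, gave -0.13. Differences between neighbours were not tested.

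In HT brain, 19 of the 36 tested members differed between P10 and P120 (HT-Veh), 14 lower and 5 higher, against 51.1% of all 17989 genes (25.3% lower and 25.8% higher). Here too the share of members that differed was near that of all genes, and the groups did not overlap for 19 of the 36 members against 40.2% of all genes. Mkrn3 had 657, 717, 643, 736 and 653 at P10 and 54.9, 51.3, 32.6, 32.8 and 44.1 at P120 (-3.98 ± 0.16, adjusted p = 6.79e-09, limma), and H19 had 298, 276, 230.5, 276 and 293 and 30.3, 35.6, 41.0, 24.9 and 10.9 (-3.34 ± 0.28, adjusted p = 1.22e-06, limma). As in WT, both fell without overlap. Dlk1 had 339.6, 485, 458, 396 and 483 and 1407, 1561, 1408, 1247 and 1027 (1.62 ± 0.14, adjusted p = 1.6e-06, limma), and Rasgrf1 (1.18 ± 0.12), Slc22a18 (2.00 ± 0.30), Trappc9 (0.90 ± 0.19) and Igf2r (0.48 ± 0.12) also rose. Rasgrf1 ran over 6191 to 7114 at P10 and 13106 to 19029.7 at P120, and Slc22a18 over 6.12 to 11.4 and 21.8 to 54.1, both without overlap. Among the falls, Inpp5f had 11191, 9915, 9393, 10412 and 9378 at P10 and 2480.0, 3461, 2646, 4097 and 3761 at P120 (-1.64 ± 0.14), Mest had 1275, 1490.2, 1432, 1464 and 1476 and 507, 546, 513, 799 and 776 (-1.21 ± 0.15), and Zdbf2 had 2207, 2131, 2106, 2081 and 2345 and 532, 825, 696, 1205 and 1185 (-1.36 ± 0.20). Calcr (-1.19 ± 0.17), Asb4 (-1.38 ± 0.30) and Sfmbt2 (-1.14 ± 0.22) fell as well, and in all 6 genes the ages did not overlap. HT-Veh replicates 4 and 5, the libraries with GC indices of -0.84 and -0.68, were the highest of their group in Ube3a (1423, 1986, 2213, 4060.5 and 3825; -1.02 ± 0.24) and in Peg3 (7735, 13179.5, 10707, 19782 and 18227; -0.33 ± 0.22, adjusted p = 0.213, limma). The choroid plexus markers summed to 7332 to 12535 at P10 and 24962 to 38835 at P120 in HT, and the proliferation markers to 2289 to 3410.2 and 149 to 286.

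Igf2, Peg10, Copg2 and Impact passed the test in WT and not in HT. Igf2 had 2756, 5036, 4922, 4582 and 3309 in HT at P10 and 3418, 3590.0, 4341, 1765 and 2658 at P120, with overlap (-0.41 ± 0.24, adjusted p = 0.160, limma). After the GC and length correction, which left 27 members called in HT with all 19 among them, Igf2 (-0.77 ± 0.16, adjusted p = 0.000942, limma), Impact (0.70 ± 0.08, adjusted p = 1.16e-05, limma) and Copg2 (0.37 ± 0.10, adjusted p = 0.00708, limma) passed in HT as well, and Peg10 passed in neither genotype (-0.09 ± 0.10 in HT). Sgce (0.46 ± 0.14), Ppp1r9a (0.43 ± 0.06), Gnas (-0.22 ± 0.08) and Begain (-0.27 ± 0.06) were also called, each with the sign turned. The test of the difference itself, the age effect in HT minus that in WT, called none of the 36 members and 0% of all 17978 genes. No member and 612 genes had an unadjusted p under 0.05 in it. The largest differences were those of H19 (0.75 ± 0.42, adjusted p = 0.877, limma), Slc22a18 (0.71 ± 0.48) and Igf2 (0.52 ± 0.29, interval -0.10 to 1.13). Without the vehicle libraries labelled replicate 2, 23 members passed in WT and 19 in HT, 22 and 19 of them shared with the full set.

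The genes around this network were described by 3 further lists, also chosen with earlier results of these data known. Of 33 tested other imprinted genes, 10 rose and 12 fell in WT from P10 to P120, so 66.7% differed, near the 58.3% of all genes. The 4 with the largest differences all fell. Peg12, of the Prader-Willi cluster, fell from 48.3 ± 10.0 to 3.58 ± 2.92 (-3.60 ± 0.37, adjusted p = 3.55e-06, limma), and Kcnq1 (-1.84 ± 0.28), Slc22a3 (-1.81 ± 0.17) and Slc38a4 (-1.79 ± 0.25) fell as well, while Dio3, the deiodinase that inactivates thyroid hormone, had the largest rise, from 31.6 ± 5.44 to 102 ± 24.1 (1.64 ± 0.19, adjusted p = 8.7e-06, limma). Of 13 tested genes of the insulin-like growth factor pathway, 8 fell (61.5%, against 29.4% of all genes) and 3 rose (23.1%, against 28.9%). Igf1, the growth factor that acts through the same receptor as IGF2, fell from 883 ± 54.5 to 206 ± 32.4 (-2.10 ± 0.11, adjusted p = 9.66e-09, limma), Igf2bp2, an RNA-binding protein of Igf2 mRNA, fell (-2.04 ± 0.23), Igfbp7 fell (-0.78 ± 0.08), and Igfbp6, a binding protein that prefers IGF2, rose from 110.1 ± 17.5 to 660.5 ± 99.9 (2.58 ± 0.13, adjusted p = 8.76e-09, limma).

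Of 13 tested genes that write, erase or protect methylation at imprints, 9 fell (69.2%, against 29.4% of all genes) and 1 rose. Uhrf1, which guides maintenance methylation, fell from 406 ± 97.9 to 41.7 ± 9.92 (-3.24 ± 0.20, adjusted p = 3.75e-08, limma). Tet1 (-2.44 ± 0.15), the imprint guardian Zfp57 (-2.17 ± 0.12) and the methyltransferase Dnmt3a (-1.62 ± 0.06, adjusted p = 6.25e-10, limma) were the next largest. All 6 proliferation markers fell over the same interval (their sum ran from 2689 to 4074 at P10 and from 103 to 282 at P120), and their part in these differences was not tested.

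At P10, the Arid1b/WT comparison called none of the 36 members by adjusted p, and 0.0224% of all 17896 genes. In limma, 11 members and 2249 genes had an unadjusted p under 0.05. Groups did not overlap for 4 of the 36 members (Igf2, Grb10, Mkrn3 and Ppp1r9a), against 3.12% of all genes. Igf2 had the smallest unadjusted p: the HT libraries at P10 had 2756, 5036, 4922, 4582 and 3309 and the WT libraries 6593, 5411, 5661, 5521 and 5429. Every HT library was lower, although HT replicates 2, 3 and 4 lay close to the WT range (-0.51 ± 0.14, unadjusted p = 0.00353, adjusted p = 0.292 in limma).

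Ppp1r9a (0.19 ± 0.05, adjusted p = 0.292 in limma) and Peg10 (0.17 ± 0.05, adjusted p = 0.317 in limma) had the next smallest unadjusted p. Peg10 had 2766, 2425, 2788, 2617 and 2908 in HT and 2199, 2458, 2389.7, 2554 and 2426 in WT, with overlap. Ppp1r9a had 8663, 7150.0, 7113, 6943 and 7601 in HT and 6422, 6613, 6288, 6552 and 6779.6 in WT, every HT library being higher. The separations of Grb10 (2407, 2474, 2423, 2471 and 2439 in HT and 2303, 2277, 2219.8, 2396 and 2309.6 in WT) and Mkrn3 (643 to 736 and 554 to 642) were small (0.09 ± 0.04 and 0.14 ± 0.06), and neither passed (adjusted p = 0.360 and 0.368, limma). H19, the neighbour of Igf2, was lower on average and overlapped (298, 276, 230.5, 276 and 293 in HT; -0.41 ± 0.14, adjusted p = 0.317, limma).

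Markers of meninges and choroid plexus were set beside Igf2 in the P10 libraries, and no correlation was computed. The 9 meninges and fibroblast markers, among them the IGF-binding protein gene Igfbp2, summed to 7671, 9415, 10445, 9685 and 7597 in HT and 30985, 10235, 11869, 11120.1 and 10261 in WT. The 8 choroid plexus markers summed to 7332, 11017, 11862, 12535 and 9768 in HT and 13064, 11747, 16072, 11721 and 13992 in WT. The 2 HT libraries lowest in Igf2, replicates 1 and 5, were the lowest in both sums, and WT replicate 1, the highest in Igf2, was the highest in the first. The match was not complete. In the choroid plexus sum HT replicates 3 and 4 lay above WT replicates 2 and 4, which had more Igf2. In the meninges and fibroblast sum HT replicate 3 lay above WT replicates 2 and 5, which also had more Igf2. WT replicate 3 had the highest choroid plexus sum and not the highest Igf2. In H19, HT replicates 1 and 5 were the highest of their group (298 and 293). None of the 17 markers was at 0 in any library. Without WT replicate 1 the difference was -0.46 ± 0.15 in Igf2 and -0.28 ± 0.11 in H19, and without HT replicate 1 it was -0.37 ± 0.11 in Igf2. The meninges and choroid plexus sums overlapped between the genotypes, whereas marker sums of 2 other cell types did not. The 3 blood markers summed to 3418 to 5219 in HT, against 6581 to 8203 in WT (1 of 3 called, lower in HT). The 4 endothelial markers summed to 4343 to 5238, against 5318 to 5721 (none called). The part of all these cell types in the members' values was not tested. Igfbp2 itself had 1611, 2235, 2359, 2441 and 1767 in HT and 2674, 2588, 2672, 2695 and 2620.5 in WT (-0.37 ± 0.10, adjusted p = 0.270, limma), and none of the 13 tested genes of the growth factor pathway passed.

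**Figure D3:**
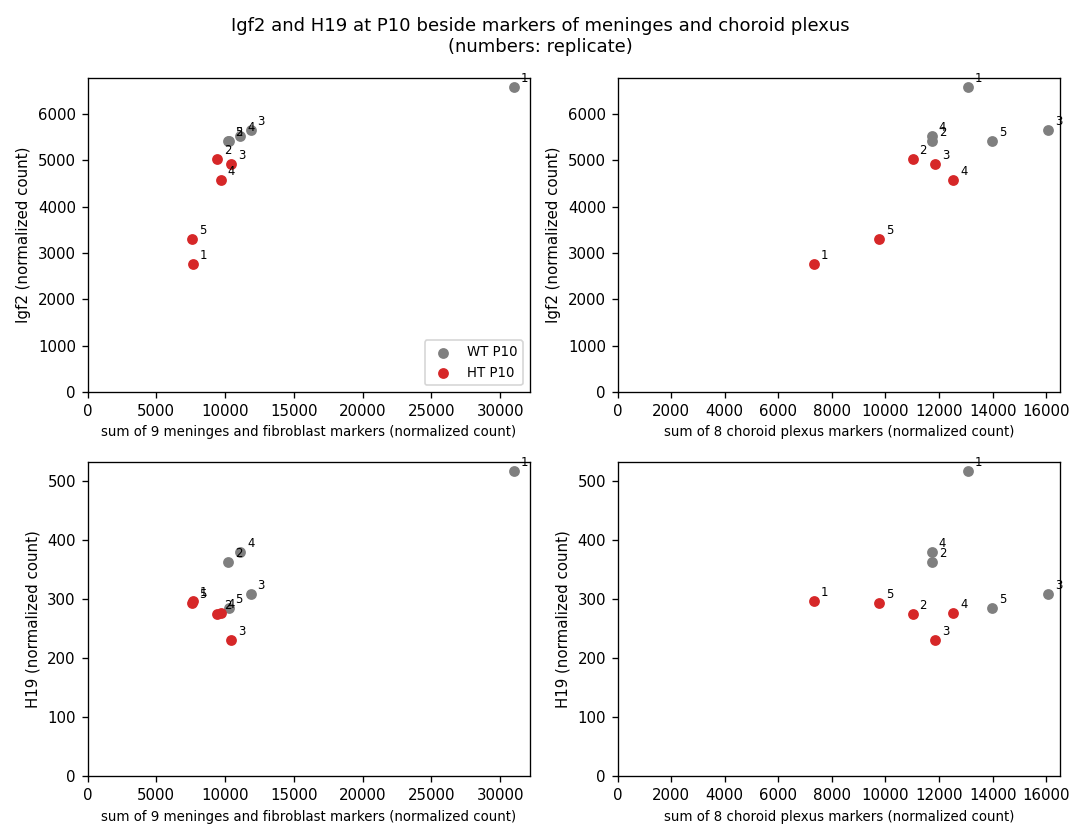
Igf2 (upper) and H19 (lower) against the summed markers of meninges and fibroblasts (left) and choroid plexus (right) in the 10 P10 libraries, all in normalized counts, numbered by replicate. HT replicates 1 and 5 are lowest in Igf2 and in both sums, and WT replicate 1 stands apart at a marker sum of 30985. In H19 the same HT replicates are the highest of their group.

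At P120 after vehicle, with 4 libraries a group, none of the 36 members differed between HT-Veh and WT-Veh, and 0% of all 17784 genes passed in limma (229 genes and no member had an unadjusted p under 0.05). With all 5 libraries a group, no member passed either. Ndn had the smallest unadjusted p (16560.4, 9096, 17343, 8400.3 and 9142 in the 5 HT-Veh libraries, with the WT-Veh values given above; 0.49 ± 0.29 over 4, interval -0.15 to 1.14, unadjusted p = 0.119 in limma), followed by Nnat (0.31 ± 0.19) and Copg2 (-0.22 ± 0.18). The intervals were wide: for Ube3a the difference was -0.06 with an interval of -0.88 to 0.76. The HT-Veh libraries themselves fell apart by GC index. In Zdbf2, replicates 1 and 3 (indices 0.85 and 0.46) were the lowest of the HT-Veh libraries and replicates 4 and 5 the highest. For Igf2 the groups overlapped at this age (1765 to 4341 in HT-Veh, against 2334 to 4475 in WT-Veh; -0.09 ± 0.28).

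After early fluoxetine, 31 of the 36 members differed between HT-Flx and WT-Flx, 15 higher and 16 lower in HT-Flx. This stood against 63.7% of all 17799 genes (33.1% higher and 30.5% lower), and both groups differed in GC index without overlap (0.54 to 1.43, against -0.85 to -0.64). The groups did not overlap for 27 of the 36 members, against 48.5% of all genes. The growth group had 5 members higher and 3 lower, the placental group 1 and 3 of 6, and the brain group 9 and 10 of 21. Dlk1 had 1711, 1911, 1573, 1755 and 1753 in HT-Flx, against 1123, 849.8, 1132, 988 and 1123 in WT-Flx (0.74 ± 0.10, adjusted p = 5.9e-05, limma). Ube3a had 916, 1772, 1188, 2183 and 1671 in HT-Flx, against 3853, 3833, 4277, 3889 and 3481 in WT-Flx (-1.38 ± 0.19, adjusted p = 7.85e-05, limma). Neither gene overlapped between the groups.

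The members with the largest differences below 0 beside Ube3a were Plagl1 (2.47-fold), Zdbf2 (-1.18 ± 0.30), Peg3 (-1.18 ± 0.21), Zim1 (-1.12 ± 0.23) and Impact (-1.08 ± 0.20), and those with the largest differences above 0 were H19 (1.60 ± 0.26), Ndn (1.03 ± 0.14), Trappc9 (0.94 ± 0.09) and Cdkn1c (0.93 ± 0.22), all larger than that of Dlk1. Plagl1 had 261, 543, 239, 521 and 298 in HT-Flx, against 843, 949.6, 817, 799 and 936 in WT-Flx. Peg3 had 5251, 10144, 5989, 13170.4 and 9503, against 18384, 17849, 20917, 19952 and 17199, and Zdbf2 315, 753, 289.6, 937 and 771, against 1090.5, 1333, 1282, 1119 and 1414. HT-Flx replicates 1 and 3, the libraries with the highest GC indices (1.43 and 1.04), were the lowest in all 3 genes. Ndn had 18956, 16748, 14221, 19893 and 14805 in HT-Flx, against 5809, 8148, 8641, 9223 and 10037 in WT-Flx, and Trappc9 6834, 6074, 5449.6, 6622 and 5318, against 3261, 2898, 2947, 3454 and 3227. These 5 genes did not overlap between the groups, and neither did Impact (2576 to 6415 and 7946 to 8769), Zim1 (128 to 316 and 359 to 557) or Calcr (30.4 to 44.7 and 53.5 to 87.3). Within the Prader-Willi cluster, Ndn and Snrpn (25010.2 ± 1857 and 20198 ± 830.0; 0.31 ± 0.07, adjusted p = 0.00297, limma) were higher in HT-Flx and Ube3a lower, while Magel2 (0.41 ± 0.18, adjusted p = 0.0644, limma) did not pass. H19 was low in both groups, at 41.8 ± 11.1 in HT-Flx and 13.2 ± 3.72 (SD, n = 5) in the other. Summed markers also differed: neuron markers summed to 89062 to 118434 in HT-Flx, against 120376 to 132036 in WT-Flx, and astrocyte markers 60041 to 92818, against 97513 to 109221. Single markers of both lists went both ways, with 2 of 5 called higher in HT-Flx and 3 lower in each. Meninges and fibroblast markers summed to 7623 to 9451, against 4369 to 6215 (6 of 9 called higher in HT-Flx, 1 lower). Oligodendrocyte markers summed to 250439 to 279477, against 178474 to 236994 (3 of 6 called higher, 1 lower). Endothelial markers summed to 5308 to 6196, against 4043 to 5233 (1 of 4 called, higher), and proliferation markers to 82.4 to 118, against 160.3 to 238 (3 of 6 called, all lower). None of these 4 sums overlapped between the groups. Their part in the members' differences was not tested.

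The GC and length correction left 19 of 36 members called, 17 of them among the 31, beside 6581 of all genes in place of 11330. Ndn stood at 1.52 ± 0.15 (adjusted p = 6.19e-05, limma), Snrpn at 0.72 ± 0.09, Plagl1 at -0.96 ± 0.18 and Peg3 at -0.69 ± 0.12. Ube3a went from -1.38 to -0.30 ± 0.07 (adjusted p = 0.00647, limma), and Dlk1 went to 0.19 ± 0.09 and was no longer called (adjusted p = 0.0928, limma). Among the members called as deposited, Sgce, Gnas, Begain, Igf2 and Usp29 changed sign. The genotype with fluoxetine and the GC index of its libraries cannot be told apart, since every HT-Flx library lay above every WT-Flx library.

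**Figure D4:**
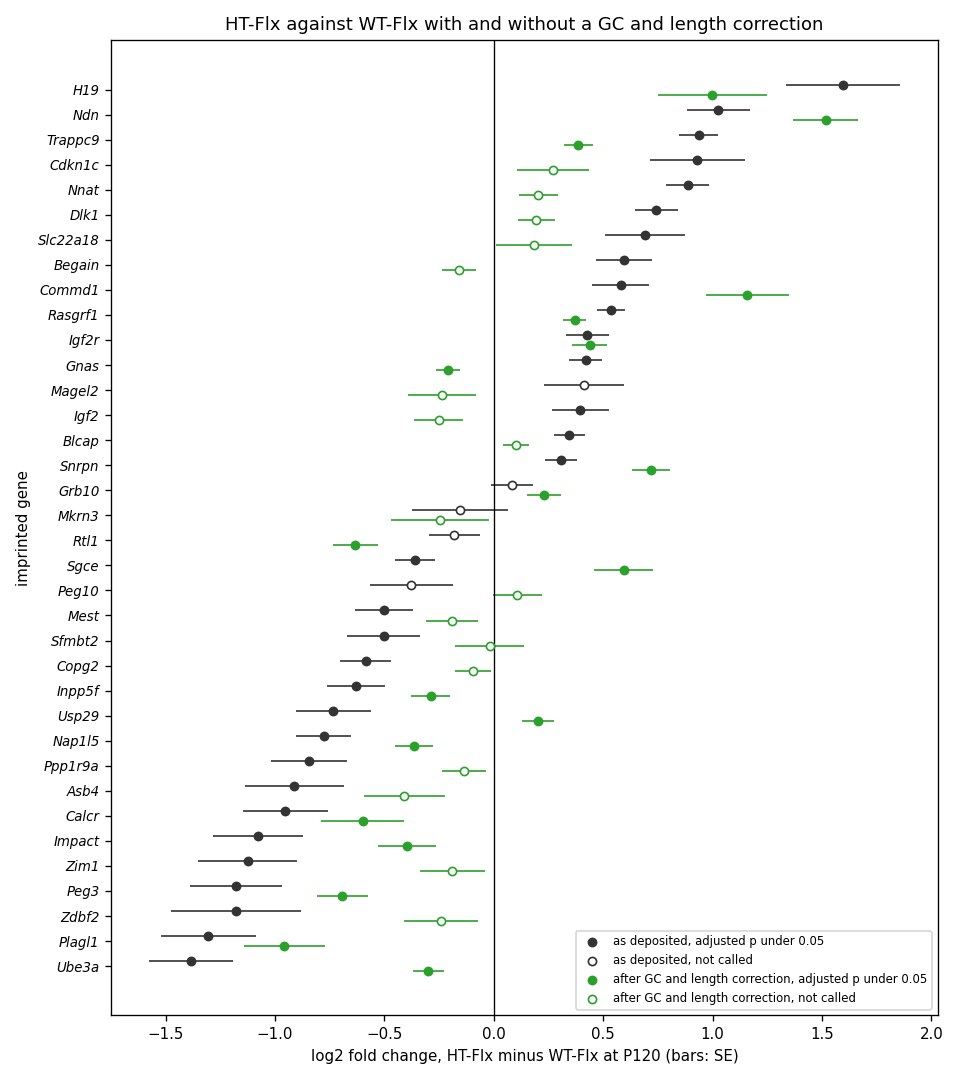
Log2 fold change of HT-Flx minus WT-Flx (horizontal axis, bars SE) for the 36 tested imprinted genes as deposited (black) and after the GC and length correction (green), filled where the adjusted p in limma was under 0.05. Most green points lie closer to 0 than the black ones, Ndn, Snrpn and Commd1 are among those farther out, and of the genes called as deposited Sgce, Gnas, Begain, Igf2 and Usp29 cross 0.

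Within a genotype, early fluoxetine called no member with the libraries unpaired. In HT (HT-Flx against HT-Veh), 0 of 36 members and 0% of all 17676 genes passed in limma, and 10 members and 4082 genes had an unadjusted p under 0.05. Dlk1 and Rasgrf1 did not overlap, 2 of 36 members against 1.62% of all genes. Calcr had the smallest unadjusted p (30.4, 30.5, 40.5, 44.7 and 30.4 in HT-Flx, against 43.6, 63.4, 51.3, 67.7 and 73.2 in HT-Veh; -0.74 ± 0.21, adjusted p = 0.215, limma), followed by Dlk1 (1407, 1561, 1408, 1247 and 1027 in HT-Veh, all below the HT-Flx libraries; 0.40 ± 0.13, adjusted p = 0.215, limma) and Rasgrf1 (20433, 21208, 19188, 19164 and 19057, against 19029.7, 16055, 16710.4, 13106 and 13313; 0.35 ± 0.13).

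In WT (WT-Flx against WT-Veh), 0 of 36 members and 0% of all 17865 genes passed in limma, and 13 members and 4504 genes had an unadjusted p under 0.05. Nnat and Rasgrf1 did not overlap, 2 of 36 members against 6.41% of all genes. Trappc9 had the smallest unadjusted p (3261, 2898, 2947, 3454 and 3227 in WT-Flx; -0.34 ± 0.10, adjusted p = 0.0941, limma), followed by Nnat (5436, 5747, 5381, 5753 and 5456 in WT-Flx; -0.24 ± 0.08, adjusted p = 0.113, limma) and Usp29 (1699, 1905, 1999, 1810.1 and 1839, against 1714, 1489, 1382, 1502 and 1741; 0.24 ± 0.08). Rasgrf1 ranged over 13478 to 14057 in WT-Flx and 14118 to 23304 in WT-Veh (-0.28 ± 0.12). Without the vehicle libraries labelled replicate 2, no member passed in either genotype. Without WT-Veh replicate 1, Nnat and Trappc9 passed in WT beside 1400.0 of all genes, and without WT-Veh replicate 5, no member and 624 genes did.

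The test of the difference, the fluoxetine effect in HT minus that in WT, called 11 of the 36 members and 27.3% of all 17796 genes. Dlk1, Nnat, Rasgrf1 and Trappc9 had positive differences, such as that of Dlk1 (0.59 ± 0.17, adjusted p = 0.0347, limma), and Ube3a, Plagl1, Calcr, Peg3, Impact, Ppp1r9a and Inpp5f negative ones, such as that of Ube3a (-1.26 ± 0.39, adjusted p = 0.0351, limma). None of the 36 members, and 0 of all genes, were called without the vehicle libraries labelled replicate 2, or after the GC and length correction, where 7312 and 3887 genes had an unadjusted p under 0.05. Leaving out 1 library in turn gave between 0 and 25 called members, with 0 without HT-Flx replicate 1, WT-Flx replicate 2 or 3, HT-Veh replicate 4 or 5, or WT-Veh replicate 2, 3 or 4, and 25 without HT-Veh replicate 1. The comparisons at P120 share their vehicle and fluoxetine libraries, so their values are not independent.

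**Figure D5:**
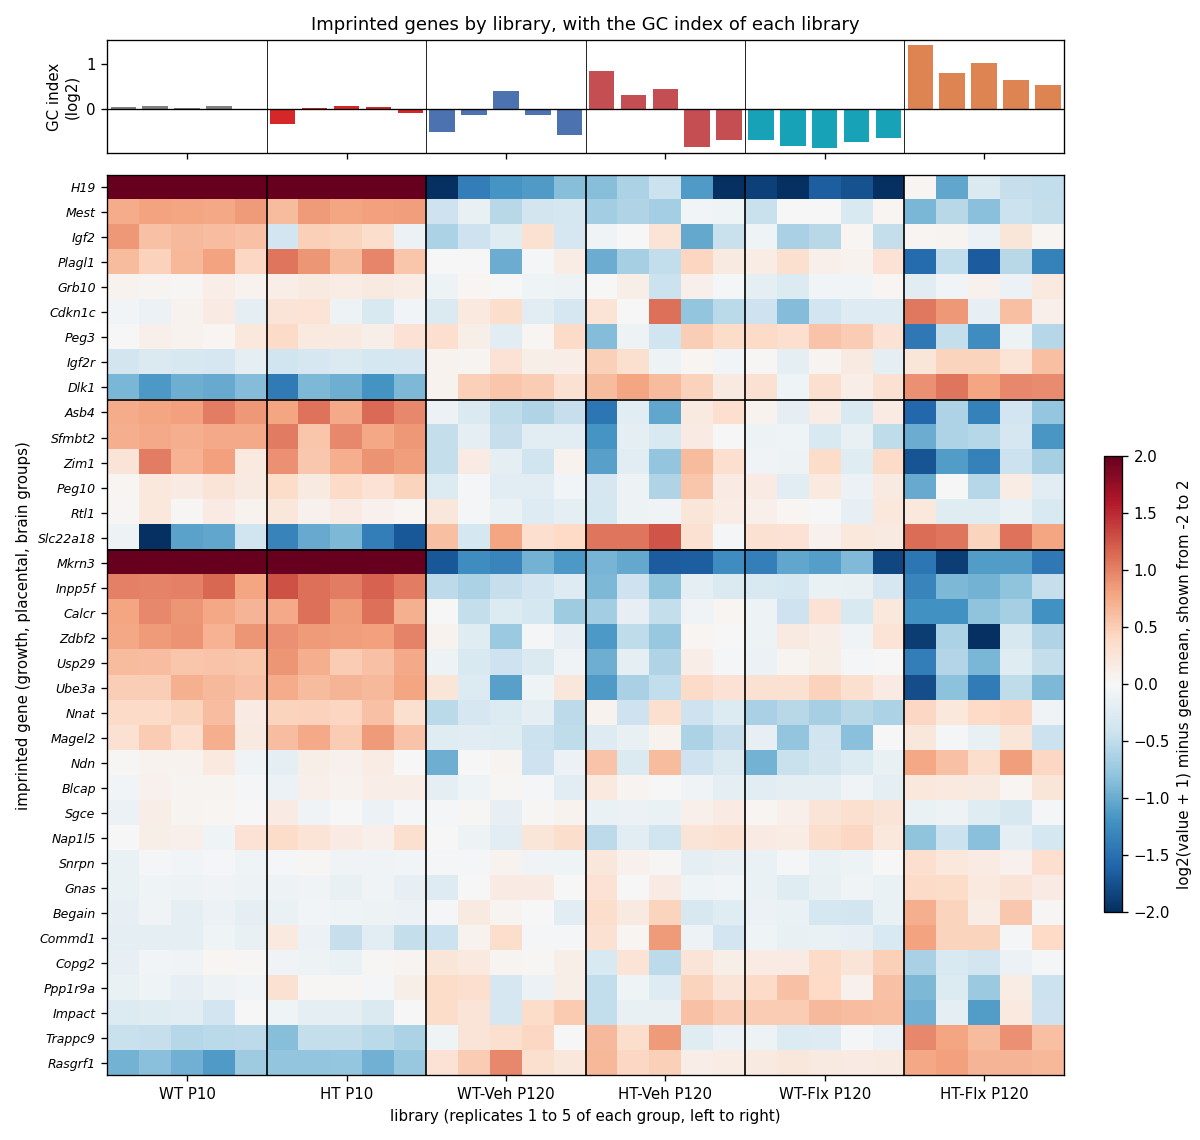
Log2(value + 1) minus the gene's mean over 30 libraries for the 36 tested imprinted genes (rows, by group) in each library (columns), under bars of the GC index of each library. The index was computed within each age, so its bars cannot be compared between P10 and P120. H19 and Mkrn3 separate P10 from P120 in every library, and within P120 the HT-Flx libraries, with indices of 0.54 to 1.43, are low in Ube3a, Zdbf2, Plagl1 and Peg3 and high in Trappc9, Dlk1 and Ndn.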

How the data were processed

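Poly-A RNA of 30 whole mouse brains, 5 in each of 6 groups, had been sequenced as unstranded paired-end reads of 100 bp. The deposited signal values are gene-level counts that the authors estimated with Salmon (1.1.0, with GC bias correction) on GRCm38 and normalized with DESeq2 (1.30.1), so read depth cannot be recovered and no count model was used. Log2(value + 1) was fitted with limma (3.58.1, R 4.3.3; intensity trend, no covariates) for genes with a mean of at least 10 over the compared libraries, with Benjamini-Hochberg adjustment over all of them and a threshold of 0.05. The fit was also run on simulated data. Their noise was independent between genes, so they cannot show how a shared deviation such as the GC index acts on the calls. The genotype comparison at P120 after vehicle used replicates 1, 3, 4 and 5, and the 2 interaction terms came from fits of 20 libraries. Symbols were matched for 99.9% of identifiers (15 had none). Levels per kb used the union of exons.

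The members and lists were chosen with earlier results of these data known. Per-library values were given for 16 genes fixed by name, for up to 8 called members per direction in each age comparison, and, in the other comparisons, for up to 10 called members and the 3 with the smallest p, with ranges in place of some of them. Alternatives were other pseudocounts, filters, scaling and trend, a replicate block and each library left out. A GC and length correction, chosen after seeing the data, subtracted in each library the mean deviation of genes in the same of 100 bins (10 of GC content by 10 of length). No 2 libraries were identical. Phlda2 was not analysed here. Python (3.11.15), pandas (2.3.3) and matplotlib (3.10.9) were used for tables and figures.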

Additional observations from a re-analysis of the deposited data

Results flagged for a closer look

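In 8 of 222 gene and group pairs, 1 library lay farther from the other 4 than Dixon's 95% critical value allows, and chance alone gives about 1 in 20. At P10 these were Igf2 in WT replicate 1 (6593, against a median of 5521), Mkrn3 in WT replicate 5 (554, median 627), Mest in HT replicate 1 (1275, median 1464), Blcap in HT replicate 1 (2943, median 3430.1) and Rasgrf1 in HT replicate 4 (6191, median 6969). At P120 they were Plagl1 in WT-Veh replicate 3 (385, median 764), Igf2r in WT-Veh replicate 3 (2571.5, median 2275) and Ascl2 in WT-Flx replicate 2 (8.26, median 5.78). WT-Veh replicate 3 also had the highest GC index of its group (0.42).

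By the interaction term in limma, 11 of the 36 members were called for a fluoxetine effect that differed between the genotypes. The log2 difference was positive for Dlk1 (0.59), Nnat (0.66), Rasgrf1 (0.63) and Trappc9 (0.82). It was negative for Peg3 (-0.94), Plagl1 (-1.17), Ube3a (-1.26), Impact (-0.89), Ppp1r9a (-0.75), Calcr (-1.04) and Inpp5f (-0.57). All 11 adjusted p-values lay between 0.0347 and 0.0478. The share of members called (30.6%) was near the 27.3% of all genes. The GC index of the libraries differed between the groups in the same comparison. No member was called without the vehicle libraries labelled replicate 2 or after the GC and length correction. Leaving out 1 library in turn gave between 0 and 25 called members.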

How the results depend on the processing

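The members recomputed were those called in a comparison or, where none was, the 3 with the smallest p. For the age comparisons and for HT-Flx against WT-Flx they were all members called under any alternative (33 in WT, 31 in HT and 35). Of these 2461 gene results, 2173 kept their direction and their side of the threshold, 192 lost significance, 41 gained it and 55 changed sign, of which 10 were for members called as deposited. The number of members called from P10 to P120 was 22 to 26 in WT and 19 to 21 in HT with 1 library left out in turn. The comparison of HT with WT called 0 to 0 members with 1 library left out at P10 and after vehicle, that of HT-Flx with WT-Flx 30 to 32, fluoxetine in HT 0 to 0, fluoxetine in WT 0 to 2 (Nnat and Trappc9, without WT-Veh replicate 1), the difference of the age effects 0 to 0 and the difference of the fluoxetine effects 0 to 25.

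The GC and length correction left 19 members called between HT-Flx and WT-Flx (6581 of all genes in place of 11330), and 16 with the replicate number as a block as well (5436). With the correction, with or without the block, Sgce (0.59), Gnas (-0.21), Begain (-0.16), Igf2 (-0.25) and Usp29 (0.20), all called as deposited, and Magel2 (-0.24) and Peg10 (0.11), not called, changed sign in that comparison. So did Sgce (0.34), Gnas (-0.16) and Begain (-0.13) with age in WT, Sgce (0.46), Gnas (-0.22), Begain (-0.27) and Ppp1r9a (0.43) with age in HT, and Nnat (0.013) and Usp29 (-0.0037) in fluoxetine against vehicle in WT. With 1 library left out, age differences that were not called ran across 0 in WT for Peg3 (-0.013 to 0.14), Sgce (-0.068 to 0.00017) and Cdkn1c (-0.14 to 0.039), and in HT for Sgce (-0.062 to 0.030), Copg2 (-0.066 to 0.13), Ppp1r9a (-0.23 to 0.0050) and Cdkn1c (-0.27 to 0.20). In HT, Sgce (0.00862) and Copg2 (-0.066) also did without the vehicle libraries labelled replicate 2, and Cdkn1c (0.0012) with median-of-ratios rescaling.

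The difference of the fluoxetine effects called 0 members after the correction, 0 with the correction and the block, 0 without the vehicle libraries labelled replicate 2 and 7 without the intensity trend, and 0 of all genes in the first 3 of these in place of 4852. At P10, 7 to 9 of all genes in place of 4 were called with the block, with the correction and the block, or without HT replicate 1, and the difference of the age effects called 2 genes in place of 0 without the trend. The causes were not tested.

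The labels do not say that a replicate number marks a shared litter or day, and in no comparison did all same-numbered libraries deviate together (correlations of -0.030 to 0.399 for fluoxetine in HT, 3 of 5 over 0.1). As a block they gave 6 called members for fluoxetine in HT (Impact, Peg3, Ube3a, Usp29, Zdbf2 and Zim1, beside 1355 of all genes in place of 0) and 17 for the difference of the fluoxetine effects. With the correction and the block together, limma called 0 members and 2 of all genes for fluoxetine in HT.

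Read depth is unknown, so the counting error of low genes such as Ascl2, Slc22a18 and H19 at P120 could not be estimated.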
